A study of Homo sapiens with 18 samples.

Results

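The genes described are 4 cytochrome P450 enzymes of the CYP4F subfamily (CYP4F2, CYP4F3, CYP4F11 and CYP4F12) and 3 aldehyde dehydrogenases of the ALDH3 family (ALDH3A1, ALDH3A2 and ALDH3B1). They are 7 of the 27166 genes in the deposited table, taken by gene name. They were chosen for acting on very long chain fatty acids and on fatty aldehydes, and because CYP4F11 was higher after KDSR knockout in 1 of the 3 cell lines, DLD1. The DLD1 values of the members are therefore given as a description without a test.

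CYP4F enzymes sit in the membrane of the endoplasmic reticulum and hydroxylate the far (omega) end of a fatty chain, using electrons from cytochrome P450 reductase. Fatty aldehyde dehydrogenases of the ALDH3 family oxidise long chain aldehydes to fatty acids. One such aldehyde, hexadecenal, is released from sphingosine-1-phosphate by sphingosine-1-phosphate lyase, and this step joins sphingolipid breakdown to fatty acid metabolism. KDSR, 3-ketodihydrosphingosine reductase, acts at the opposite end, in an early step of sphingolipid synthesis.

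Levels came from RNA sequencing of 18 libraries in 6 groups of 3. HUH7 is a hepatocellular carcinoma line of the liver, DLD1 a colon adenocarcinoma line and NCIH838 a lung adenocarcinoma line. In each line, cells infected with lentiCRISPR v2 carrying a non-targeting guide (CTRL) were compared with cells carrying a single guide against KDSR, KDSR g1 (KDSR KO). All groups, controls included, received lentivirus and 5 days of puromycin. HUH7 and DLD1 cells were harvested 8 days after infection and NCIH838 cells 10 days after it. The design text calls the libraries of a group biological triplicates. The day and the line cannot be told apart between NCIH838 and the other lines, and only 1 guide was used.

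Levels are in TPM, which gives a gene's share of the measured RNA per unit of transcript length, so that genes can be compared with each other. The libraries held 17039634 to 20385767 recovered reads. KDSR mRNA fell from 29.7 ± 2.50 to 19.2 ± 0.413 TPM in DLD1 (SD, n = 3; limma, Benjamini-Hochberg adjusted p = 0.000775). It was 5.79 ± 0.730 and 3.63 ± 0.401 TPM in HUH7 (adjusted p = 0.114) and 13.4 ± 1.39 and 12.9 ± 0.821 TPM in NCIH838 (adjusted p = 0.681), neither of which passed the test. KDSR KO is used throughout as the label of a library; the mRNA level does not measure the edited protein. Of the lung markers checked, 0 of the 6 in the table reached 1 TPM in NCIH838. In HUH7 7 of 7 liver markers did, and so did 4 of 7 colon markers. Of the colon markers, 7 of 7 reached it in the DLD1 controls and 6 of 7 in DLD1 KDSR KO. Their summed level was 990 to 1088 TPM in the DLD1 controls and 761 to 798 TPM in DLD1 KDSR KO. Fibroblast markers, 4 of 4, were above 1 TPM in HUH7 with a summed level of 101 to 108 TPM over its 6 libraries. HUH7 CTRL replicate 1 stood apart, with a chi-square per gene of 19.4 and 17.6 against the other HUH7 controls, which differed from each other by 3.50. Among NCIH838 KDSR KO libraries, replicate 2 differed from the others by 14.6 and 8.997. DLD1 CTRL replicate 3 differed from the other DLD1 controls by 9.397 and 7.25, which differed from each other by 3.27. In bulk RNA a lower level in every cell and fewer expressing cells cannot be told apart.

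The 4 CYP4F genes lie on chromosome 19 within 294 kb (hg38, GENCODE 29 gene models): CYP4F3 at chr19:15640897-15662825 and CYP4F12 at chr19:15672757-15697174 on the plus strand, CYP4F2 at chr19:15878023-15898120 and CYP4F11 at chr19:15912367-15934867 on the minus strand. ALDH3A2, at chr17:19648136-19677598 on the plus strand, and ALDH3A1, at chr17:19737984-19748943 on the minus strand, are 60.4 kb apart. ALDH3B1 lies at chr11:68008578-68029282 on the plus strand. The coding sequences of the CYP4F members are close to one another, from 84.2% identical for CYP4F3 and CYP4F12 to 91.0% for CYP4F2 and CYP4F3. Those of the ALDH3 members are further apart, from 56.9% for ALDH3A2 and ALDH3B1 to 67.2% for ALDH3A1 and ALDH3A2. The following stretches of coding sequence, from GENCODE 29 transcripts, are shown because they carry the catalytic site and show how alike the members are. Each CYP4F stretch spans coding bases 1366 to 1425 of its transcript. Capitals mark the codons of the heme-binding signature, which holds the cysteine that binds the heme iron.
CYP4F2: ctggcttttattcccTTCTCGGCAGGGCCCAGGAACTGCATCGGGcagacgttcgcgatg
CYP4F3: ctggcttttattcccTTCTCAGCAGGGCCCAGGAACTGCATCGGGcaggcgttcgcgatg
CYP4F11: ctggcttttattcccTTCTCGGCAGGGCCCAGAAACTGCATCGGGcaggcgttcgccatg
CYP4F12: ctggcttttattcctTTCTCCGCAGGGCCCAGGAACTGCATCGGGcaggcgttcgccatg

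CYP4F2 and CYP4F3 differed at 2 of these 60 bases, and CYP4F2 and CYP4F12, the most different pair, at 4. The ALDH3 stretches span coding bases 706 to 765 in ALDH3A1 and ALDH3B1 and 697 to 756 in ALDH3A2. Their capitals mark the codons around the active-site cysteine.
ALDH3A1: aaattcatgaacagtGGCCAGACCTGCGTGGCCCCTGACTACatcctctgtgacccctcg
ALDH3A2: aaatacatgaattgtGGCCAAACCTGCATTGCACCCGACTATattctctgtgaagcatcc
ALDH3B1: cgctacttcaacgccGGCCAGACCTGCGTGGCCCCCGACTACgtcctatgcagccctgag

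ALDH3A1 and ALDH3A2 differed at 14 of the 60 bases, and ALDH3A2 and ALDH3B1 at 26. Reads from such stretches could be assigned to the wrong gene, and the sources used here do not give the authors' handling of reads that match several genes. Of all 50-base words in 1 transcript per gene, 17.6% of those of CYP4F2 and 10.1% of those of CYP4F3 occurred in another gene, mostly in each other. The share was 4.36% for CYP4F12, mostly in the pseudogene CYP4F24P, and 1.03% for CYP4F11, of which 0.611% were shared with CYP4F3. For the ALDH3 members it was between 0.397% and 2.83%.

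CYP4F11, which hydroxylates long chain fatty acids and vitamin K, was the member named in the choice. In DLD1 it read 1.59, 2.48 and 2.66 TPM in the controls and 14.4, 12.2 and 13.7 TPM with the knockout. Every knockout library lay far above every control, with means of 2.25 ± 0.571 and 13.4 ± 1.13 TPM (SD, n = 3), a ratio of 5.98. In NCIH838, whose values the choice did not use, it read 8.61, 10.5 and 8.28 TPM in the controls and 13.3, 14.3 and 13.8 TPM with the knockout. These groups did not overlap, and the rise, 1.51-fold in mean TPM, passed the test (log2 difference of log2(TPM + 1) 0.55, SE 0.115, limma, adjusted p = 0.00129). In HUH7 a single read was found over all 6 libraries, in CTRL replicate 2, and all 3 knockout libraries were at 0. A fall could not have been seen at this depth, and no rise was. The floor of 3 reads in 1 library corresponds to 0.143 to 0.150 TPM in HUH7. The levels of CYP4F11 after knockout in NCIH838 and in DLD1 overlapped, at means of 13.8 and 13.4 TPM, while the control levels of these lines, 9.12 ± 1.19 and 2.25 ± 0.571 TPM, did not.

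CYP4F3, the leukotriene B4 omega-hydroxylase, differed strongly between lines. It read 9.03, 9.52 and 11.8 TPM in the HUH7 controls and 12.9, 12.2 and 10.5 TPM with the knockout. These groups overlapped, and the difference did not pass (log2 difference 0.22, SE 0.102, adjusted p = 0.448). In DLD1 it went from 0.775, 1.10 and 0.760 TPM in the controls to 5.53, 4.88 and 4.89 TPM with the knockout. The groups were far apart, with means of 0.879 ± 0.193 and 5.10 ± 0.369 TPM and a ratio of 5.80, close to that of CYP4F11. In NCIH838 it read 33.4, 31.7 and 29.1 TPM in the controls and 25.0, 24.1 and 26.5 TPM with the knockout. The groups did not overlap and the fall passed the test (log2 difference -0.31, SE 0.102, adjusted p = 0.0248). That call was lost with a pseudocount of 0.1 (adjusted p = 0.0727), under quantile normalization (0.0542) and with the replicate number as a block. It was also lost when a library was left out, namely the first control (0.0900), the second control (0.0638), the first knockout (0.0556) or the second knockout library (0.0767). In the DLD1 values, which are a description only, CYP4F3 and CYP4F11 were both higher after knockout. In NCIH838 CYP4F11 was higher and CYP4F3 lower, the latter with the unsteady call just given.

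CYP4F12, which hydroxylates arachidonic acid and is found in liver and gut, had the largest knockout difference of a tested member, in NCIH838. It read 11.6, 14.4 and 10.7 TPM in the controls and 2.82, 2.41 and 2.41 TPM with the knockout. Means were 12.2 ± 1.90 and 2.55 ± 0.239 TPM, a 4.80-fold fall (log2 difference -1.89, SE 0.150, adjusted p = 1.71e-07), and every knockout library was below every control. In HUH7 the controls had 2.42, 1.90 and 2.25 TPM, against 2.28, 2.79 and 2.94 TPM with the knockout. They overlapped, with no call (log2 difference 0.20, SE 0.150, adjusted p = 0.562). In DLD1 the controls had 1.53, 0.732 and 1.13 TPM, against 0.908, 1.46 and 1.59 TPM with the knockout, and they overlapped too. CYP4F12 in NCIH838 KDSR KO thus lay within the range of its HUH7 libraries. CYP4F2, a vitamin K and fatty acid omega-hydroxylase of the liver, was barely detected, at 0 to 3 reads and at most 0.172 TPM in any library, liver line included. It was not tested.

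**Figure D1:**
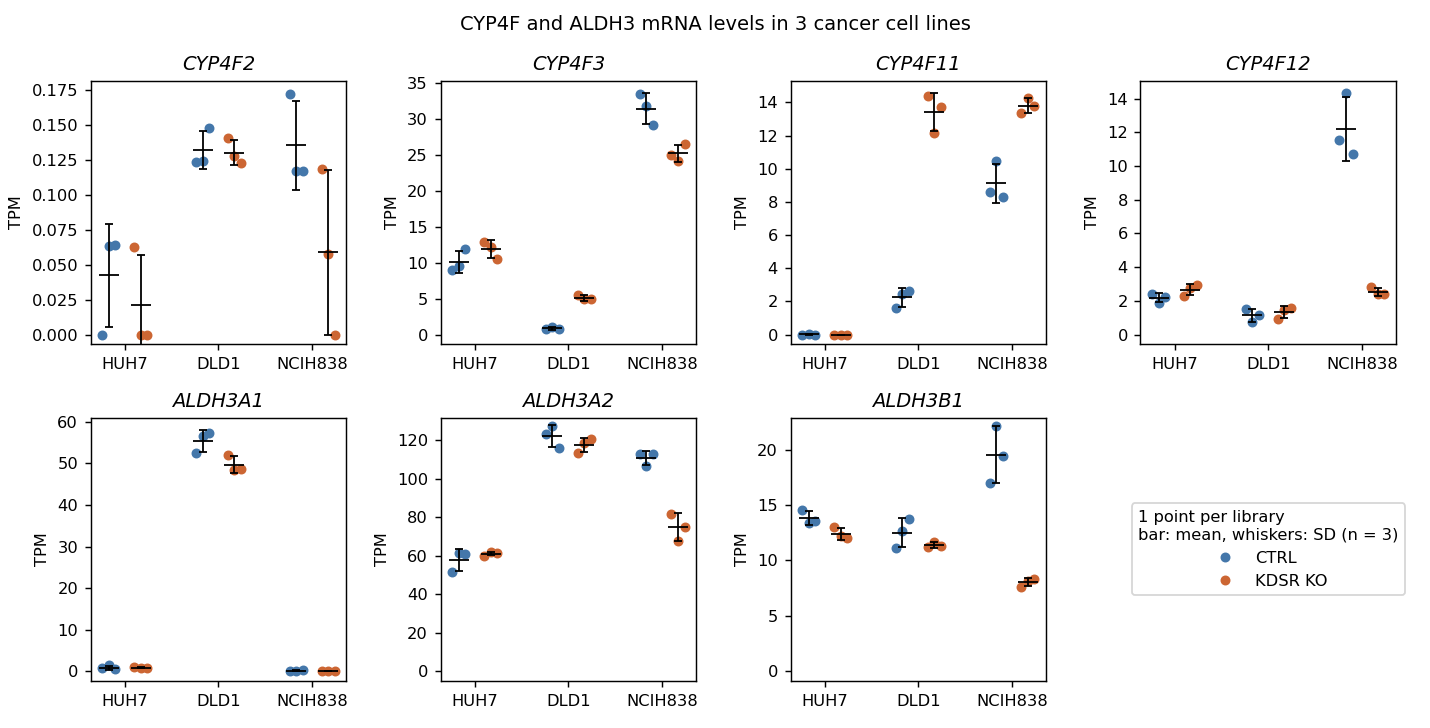
TPM of each member in each of the 18 libraries, by line, for CTRL (blue) and KDSR KO (orange), with the mean and SD (n = 3); each panel has its own TPM axis from about 0. CYP4F11 and CYP4F3 in DLD1 separate knockout from control upward, and CYP4F12 and ALDH3B1 in NCIH838 separate downward.

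ALDH3A2, the fatty aldehyde dehydrogenase whose loss causes Sjögren-Larsson syndrome and which oxidises hexadecenal, was the most abundant member in every library. It read 51.4, 61.3 and 60.9 TPM in the HUH7 controls and 60.03, 61.8 and 61.5 TPM with the knockout. In DLD1 it read 123, 127 and 116 TPM in the controls and 113, 119 and 121 TPM with the knockout. In both lines the groups overlapped, and in HUH7 the difference was not called (log2 difference 0.08, SE 0.0717, adjusted p = 0.611). In NCIH838 it read 113, 107 and 113 TPM in the controls and 81.9, 67.7 and 75.1 TPM with the knockout. Here all knockout libraries were below all controls, and the level fell by 32.4%, from 111 ± 3.75 to 74.9 ± 7.10 TPM (log2 difference -0.56, SE 0.0717, adjusted p = 1.96e-05).

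ALDH3B1, an enzyme that oxidises lipid-derived aldehydes at membranes, fell further in the same line. In NCIH838 it read 16.998, 22.1 and 19.4 TPM in the controls and 7.60, 8.17 and 8.31 TPM with the knockout. The groups were well apart, and the level fell by 58.9%, from 19.5 ± 2.58 to 8.03 ± 0.375 TPM (log2 difference -1.18, SE 0.0846, adjusted p = 5.51e-08). In HUH7 the controls had 14.5, 13.4 and 13.6 TPM, against 13.0, 12.2 and 12.01 TPM with the knockout. All knockout libraries were below all controls there as well, but the difference did not pass (log2 difference -0.15, SE 0.0846, adjusted p = 0.497). DLD1 controls had 11.1, 12.7 and 13.7 TPM, against 11.2, 11.6 and 11.3 TPM with the knockout, which overlapped. A transcript on the opposite strand, AC004923.4, overlaps ALDH3B1. Its level in NCIH838 was 7.18 ± 0.479 TPM in the controls and 3.15 ± 1.24 TPM with the knockout, a fall that passed the test (adjusted p = 0.00951). The strand setting of the counting is not known from the sources used here, so reads of these overlapping genes cannot be told apart.

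ALDH3A1, an abundant enzyme of the cornea that is inducible through the aryl hydrocarbon receptor, was high in DLD1 and low in the other lines. It read 52.4, 56.6 and 57.3 TPM in the DLD1 controls and 52.1, 48.4 and 48.6 TPM with the knockout. The knockout libraries were all below the controls by a narrow margin, with means of 55.4 ± 2.64 and 49.7 ± 2.07 TPM. In HUH7 it read 0.887, 1.42 and 0.462 TPM in the controls and 0.954, 0.903 and 0.930 TPM with the knockout. In NCIH838 it read 0, 0.141 and 0.282 TPM in the controls and 0.0953, 0.0464 and 0 TPM with the knockout. The groups of these lines overlapped, and neither line reached the mean of 1 TPM needed for the test.

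Set against the whole table, these counts read differently in each line. In NCIH838, 5 members passed the filter of 1 TPM, and of these 1 was called higher and 4 lower, where 42.5% of the 16347 tested genes were called, 15.7% higher and 26.8% lower. The groups of all 5 did not overlap, as was so for 50.8% of those genes. Of all NCIH838 calls 36.9% were higher, and the share became 45.8% with median ratio scaling, 47.3% with quantile normalization and 50.2% with voom. The 5 members kept their direction under each of these. In HUH7, 0 of the 4 members tested were called by limma, beside 0% of 16104 genes, with 0 also by voom on recovered reads. At an unadjusted p under 0.05 there were 1806 genes and 0 of these 4 members. Groups that did not overlap, as for ALDH3B1 in HUH7, occurred in 16.9% of its tested genes. In DLD1 17.3% of 15478 genes were called, 5.16% higher and 12.1% lower, and groups did not overlap in 39.2%. The 2674 calls became 1605 without DLD1 CTRL replicate 3 and 1753 without DLD1 KDSR KO replicate 3. Since the choice used that contrast, nothing is read from the members there. Of all DLD1 calls 29.9% were higher, and 47.6%, 56.0% and 54.4% under the same alternatives.

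The knockout differences of NCIH838 and HUH7 were compared directly for the 4 members tested in both. CYP4F12 differed most (NCIH838 minus HUH7 log2 difference -2.09, SE 0.212, adjusted p = 6.13e-06). ALDH3B1 (-1.03, SE 0.120, adjusted p = 2.36e-05), ALDH3A2 (-0.65, SE 0.101, adjusted p = 0.000301) and CYP4F3 (-0.52, SE 0.144, adjusted p = 0.0124) also differed. These are 4 of 4, beside 33% of the 13739 genes tested. The CYP4F3 call was lost with the replicate number as a block (limma, adjusted p = 0.0512). The lines also differed in collection day, so line and day cannot be told apart.

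Leaving out HUH7 CTRL replicate 1, the HUH7 log2 differences were 0.14 for CYP4F3, 0.25 for CYP4F12, 0.00 for ALDH3A2 and -0.11 for ALDH3B1, none called. The differences between NCIH838 and HUH7 were then -0.45 for CYP4F3 (adjusted p = 0.0316), -2.14 for CYP4F12, -0.56 for ALDH3A2 and -1.06 for ALDH3B1, all called. Without NCIH838 KDSR KO replicate 2, the NCIH838 differences were 0.53 for CYP4F11, -1.86 for CYP4F12, -0.49 for ALDH3A2 and -1.19 for ALDH3B1, all called, and -0.28 for CYP4F3, not called. Without DLD1 CTRL replicate 3, the described DLD1 differences were 1.66 for CYP4F3 and 2.26 for CYP4F11, beside 1.70 and 2.17 with it. Mitochondrial transcripts took 7.07% to 12.5% of TPM in the HUH7 controls and 8.98% to 10.6% in the knockout libraries. The ranges were 6.32% to 8.96% and 8.35% to 9.59% in DLD1, and 11.9% to 15.2% in both groups of NCIH838. Their part in the results was not tested.

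Control levels of most members differed between the lines, and for NCIH838 line and collection day cannot be told apart. CYP4F3 was 3.10-fold higher in NCIH838 than in HUH7 controls (log2 difference 1.55, adjusted p = 1.08e-09). Its DLD1 controls averaged 0.879 TPM, and DLD1 passed the filter of 1 TPM only through its knockout libraries. The NCIH838 and HUH7 control means were 35.8 and 11.5 times as high as these controls, given without a test. CYP4F12 was 5.59-fold higher in NCIH838 than in HUH7 (adjusted p = 4.25e-09) and lower in DLD1 than in HUH7 (log2 difference -0.60, adjusted p = 0.00207). CYP4F11 had 602 reads in the NCIH838 controls and 1 in the HUH7 controls (pooled ratio 558, exact 95% counting interval 99.7 to 22058). The interval covers counting error only. ALDH3A1 averaged 55.4 TPM in the DLD1 controls, 0.924 TPM in those of HUH7 and 0.141 TPM in those of NCIH838, where the 3 libraries held 9 reads. CYP4F11 and ALDH3A1 passed the filter only through the line where they are high, so these differences carry no p. ALDH3A2 was 2.11-fold higher in DLD1 (adjusted p = 1.35e-09) and 1.92-fold higher in NCIH838 (adjusted p = 7.77e-09) than in HUH7. Between NCIH838 and DLD1 it was not called (log2 difference -0.14, adjusted p = 0.0901). ALDH3B1 was 1.41-fold higher in NCIH838 than in HUH7 (adjusted p = 0.000136) and 1.56-fold higher than in DLD1 (adjusted p = 8.88e-06). DLD1 and HUH7 did not differ by a call (log2 difference -0.14, adjusted p = 0.146). Most genes differed between lines: 76.3% of 18712 tested genes were called between NCIH838 and HUH7, 75.7% of 18170 between DLD1 and HUH7, and 77.7% of 18358 between NCIH838 and DLD1. Median ratio scaling moved the median of all genes in DLD1 against HUH7 from 0.12 to -0.01. Without HUH7 CTRL replicate 1 or without DLD1 CTRL replicate 3, each tested control difference kept its direction and its side of the threshold.

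Over all 6 groups, CYP4F3 ran from NCIH838 CTRL through NCIH838 KDSR KO, both HUH7 groups and DLD1 KDSR KO to DLD1 CTRL, and only the HUH7 groups overlapped as neighbours. CYP4F11 was highest in NCIH838 KDSR KO and DLD1 KDSR KO, which overlapped, then NCIH838 CTRL, DLD1 CTRL and HUH7. CYP4F12 was highest in NCIH838 CTRL. The remaining groups were close, with HUH7 KDSR KO, NCIH838 KDSR KO and HUH7 CTRL overlapping in turn, and the DLD1 groups lowest. ALDH3B1 was highest in NCIH838 CTRL and lowest in NCIH838 KDSR KO, with HUH7 and DLD1 between, so that 1 line held both ends of its order.

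The summed CYP4F level was 4.02 to 4.70 TPM in DLD1 CTRL and 18.7 to 20.9 TPM in DLD1 KDSR KO. In NCIH838 it was 48.2 to 56.7 and 40.9 to 42.7 TPM, and in HUH7 11.4 to 14.2 and 13.5 to 15.2 TPM. The make-up of the sum differed by line. CYP4F3 gave 78.2% to 84.6% of it in every HUH7 library. In DLD1 CYP4F11 gave 39.6% to 56.6% in CTRL and 65.3% to 68.6% in KDSR KO. In NCIH838 CYP4F11 went from 16.0% to 18.5% in CTRL to 32.3% to 34.9% in KDSR KO, while CYP4F12 went from 21.5% to 25.3% to 5.65% to 6.85%. CYP4F3 stayed at 56.0% to 62.2% of the NCIH838 sum in both groups. Among the ALDH3 members, ALDH3A2 gave 62.0% to 91.4% in every library. The ALDH3 sum was 129 to 133 TPM in NCIH838 CTRL and 75.9 to 89.6 TPM in NCIH838 KDSR KO.

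**Figure D2:**
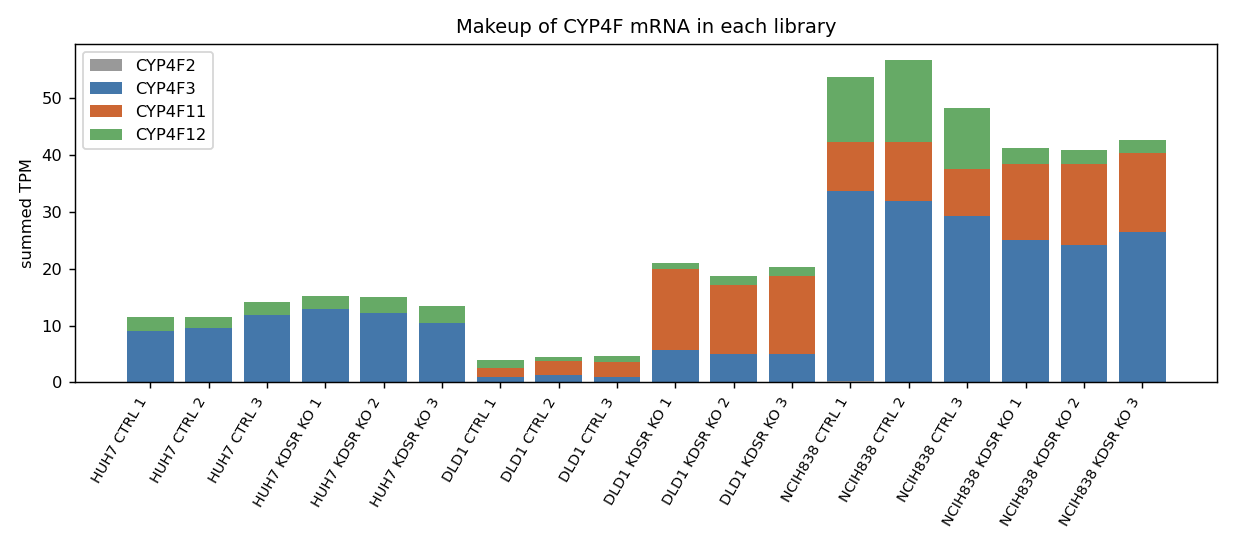
Summed TPM of the CYP4F members in each library, stacked by member, with TPM on the vertical axis from 0. CYP4F11 makes up 65.3% to 68.6% of the DLD1 knockout bars, and in the NCIH838 knockout bars CYP4F12 shrinks while CYP4F11 grows.

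The RefSeq promoter table matched 5 of the 7 members, with 8 windows, and did not match CYP4F12 or ALDH3A1. The 4 windows with a capitalised motif match are shown, so that the matches and the likeness of CYP4F3 and CYP4F11 can be seen. They are windows of GRCh38.p14, 250 bases before to 50 after a start, printed on the gene's own strand. Capitals mark matches to the motifs searched on both strands: the antioxidant response element core TGACNNNGC, the AP-1 site TGANTCA, the inverted heat shock units GAANNTTC, the PPAR element (AGGTCA repeated after 1 free base) and the sterol regulatory element TCACNCCAC. The xenobiotic response core GCGTG was also searched. The windows are CYP4F3 at chr19:15641062-15641361 (plus strand), a downstream start of CYP4F11 at chr19:15934480-15934779, its other start at chr19:15934818-15935117 (both minus strand) and ALDH3A2 at chr17:19648501-19648800 (plus strand).
CYP4F3: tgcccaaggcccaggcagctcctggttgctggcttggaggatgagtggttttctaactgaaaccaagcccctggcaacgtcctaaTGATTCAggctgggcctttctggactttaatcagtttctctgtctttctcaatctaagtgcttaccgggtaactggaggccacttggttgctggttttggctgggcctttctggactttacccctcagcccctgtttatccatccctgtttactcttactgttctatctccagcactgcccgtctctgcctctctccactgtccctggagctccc
CYP4F11, downstream start: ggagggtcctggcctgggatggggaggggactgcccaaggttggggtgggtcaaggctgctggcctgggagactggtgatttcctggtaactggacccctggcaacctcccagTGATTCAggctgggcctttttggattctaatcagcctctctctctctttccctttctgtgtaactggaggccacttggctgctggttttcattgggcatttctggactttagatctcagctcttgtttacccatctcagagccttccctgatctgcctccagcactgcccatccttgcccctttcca
CYP4F11, upstream start: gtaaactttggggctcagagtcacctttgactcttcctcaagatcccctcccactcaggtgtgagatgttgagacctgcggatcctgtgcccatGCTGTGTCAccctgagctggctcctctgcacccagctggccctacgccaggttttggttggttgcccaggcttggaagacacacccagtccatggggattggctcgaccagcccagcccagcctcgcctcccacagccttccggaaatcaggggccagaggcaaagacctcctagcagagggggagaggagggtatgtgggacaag
ALDH3A2: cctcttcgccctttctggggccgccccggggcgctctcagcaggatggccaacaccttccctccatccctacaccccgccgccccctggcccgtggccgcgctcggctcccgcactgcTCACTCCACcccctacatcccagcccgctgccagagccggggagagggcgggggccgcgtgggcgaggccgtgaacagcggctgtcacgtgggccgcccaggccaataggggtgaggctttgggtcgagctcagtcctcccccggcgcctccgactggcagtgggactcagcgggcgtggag

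CYP4F3 and the downstream CYP4F11 start were 75.5% identical over 269 aligned bases, while CYP4F3 and the upstream CYP4F11 start aligned over 8 bases only. Such likeness was not limited to CYP4F3 and the downstream start. CYP4F2, which was barely detected, and the upstream CYP4F11 start were 68.6% identical over 277 aligned bases. CYP4F3 and the downstream CYP4F11 start each held 1 AP-1 match, at -165 and at -137. The upstream CYP4F11 start held 1 antioxidant core, on the opposite strand at -156. The ALDH3A2 window held 1 sterol match at -132 and GCGTG at -76 and 43. Each printed window held 1 capitalised match, so none overlapped, and which start the cells used was not measured. Among all 35116 RefSeq promoters of this length, 7.71% held TGANTCA, 13.3% TGACNNNGC, 36.5% GCGTG, 6.77% GAANNTTC, 1.13% TCACNCCAC and 0.0228% the PPAR element. A match is only a description of the letters. The windows of CYP4F2 and ALDH3B1 and the other ALDH3A2 window held 0 matches.

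Neighbouring genes were compared as the nearest ones in the table with at least 1 TPM in a line. UCA1, a long noncoding RNA inside the CYP4F cluster at chr19:15828206-15836303, rose in DLD1 from 31.6 ± 3.58 to 51.5 ± 3.05 TPM (adjusted p = 0.00235). In HUH7 it did not pass (adjusted p = 0.643). AC005336.1, a processed pseudogene beside the end of CYP4F11 at chr19:15910582-15911824 and on the same strand, rose with it in NCIH838, from 3.29 ± 0.536 to 6.24 ± 0.227 TPM (adjusted p = 7.68e-05). Beyond the cluster, TPM4 was not called in any line, and CYP4F23P, tested in DLD1 only, was not called there. Beside the ALDH3A pair, ULK2 fell in NCIH838 from 7.42 ± 0.398 to 4.32 ± 0.366 TPM (adjusted p = 8.11e-05). Beside ALDH3B1, UNC93B1 fell from 44.7 to 30.5 TPM in NCIH838 (adjusted p = 2.77e-05). NDUFS8, on its other side, fell in NCIH838 (limma, adjusted p = 0.0205) and in DLD1 (0.00827). ALDH3B2, a close relative of ALDH3B1 and near 0 in the other lines, fell in DLD1 from 3.11 ± 0.151 to 1.97 ± 0.344 TPM (adjusted p = 0.00427). Over all tested genes, 15.7% were called higher and 26.8% lower in NCIH838, and 5.16% and 12.1% in DLD1. Nothing particular to these neighbourhoods is read from the calls.

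The genes most like each member were ranked by Pearson correlation of log2(TPM + 1) over the 18 libraries, which share line and depth, so r is a description. For CYP4F11 they were GABARAPL1 (r = 0.980), OSBPL2 (0.976) and MAFG (0.973). Since these genes were picked for following the members over the same libraries, their levels are given without a test. GABARAPL1 averaged 105 and 175 TPM in DLD1 CTRL and KDSR KO and 139 and 215 TPM in those of NCIH838. MAFG averaged 38.7 and 68.4 TPM in DLD1 and 60.5 and 92.5 TPM in NCIH838, in the same order. For CYP4F3 they were MTRNR2L12 (0.985), MT-RNR2 (0.974) and FTL (0.973). MT-RNR2 is the mitochondrial large ribosomal RNA, at a mean of 1464 TPM in DLD1 CTRL and 2915 TPM in DLD1 KDSR KO. In NCIH838 it averaged 12666 and 11454 TPM, in the same order. FTL averaged 4588 and 9367 TPM in DLD1 CTRL and KDSR KO. In NCIH838 FTL averaged 32269 and 42161 TPM, higher after knockout where CYP4F3 was lower. For CYP4F12 they were COA5 (0.948), SLC11A2 (0.945) and RPSA (0.931), and for ALDH3B1 DAG1 (0.926), ST5 (0.891) and RUSC1 (0.874). For ALDH3A2 they were DDAH1 (0.992), SETDB2 (0.990) and CHEK1 (0.989). ALDH3A1 followed CLDN7 (0.999), H2AFY (0.998) and UGT8 (0.998). CYP4F11 and CYP4F3 correlated weakly (r = 0.238), and CYP4F3 with CYP4F12 at 0.741.

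Around the members, 112 genes of 8 pathway lists were followed, of which 106 were in the table. In NCIH838, 16 were called higher and 36 lower of 81 tested, or 64.2% called (19.8% higher, 44.4% lower), beside 42.5% (15.7% and 26.8%) over all genes. In DLD1, 6 were higher and 14 lower of 83 tested, or 24.1% called (7.23% higher, 16.9% lower), beside 17.3% (5.16% and 12.1%) over all genes. The DLD1 counts became 10 higher and 9 lower under median ratio scaling. In HUH7, 0 of 83 were called. The counts of single lists that follow are to be read against these shares over all genes, and nothing particular to a list is read from them. Of 12 genes that supply P450 enzymes with electrons and heme, 1 rose and 8 fell in NCIH838, with a list median of -0.37 beside -0.09 for all genes. The riser was ALAS1, the rate-limiting enzyme of heme synthesis, from 120 to 169 TPM (adjusted p = 1.90e-06), and PPOX, a later enzyme, fell from 17.7 to 10.7 TPM. In DLD1 ALAS1 rose too, from 116 to 145 TPM, and CYB5A, PPOX and UROS fell.

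Of 12 other aldehyde dehydrogenases tested in NCIH838, 1 rose and 6 fell (median -0.14), among them ALDH7A1, from 19.7 to 12.2 TPM (adjusted p = 5.84e-07). ALDH2, the mitochondrial acetaldehyde enzyme, was the riser, from 14.6 to 18.7 TPM. In DLD1 4 fell and 0 rose, with ALDH1B1 going from 254 to 196 TPM. Of 11 tested genes for fatty alcohol and aldehyde interconversion, AKR1B10, a reductase of aldehydes, rose in DLD1 and NCIH838. It went from 1.68 to 9.04 TPM in DLD1 (adjusted p = 5.34e-08) and from 10.3 to 16.7 TPM in NCIH838 (adjusted p = 0.000448). In HUH7 AKR1B10 averaged 8.51 and 15.2 TPM, a log2 difference of 0.77 that was not called (limma, adjusted p = 0.0803). This list had 3 higher and 1 lower in DLD1 and 2 higher and 2 lower in NCIH838.

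Of 18 tested genes that make sphingosine-1-phosphate and break it down to fatty acyl-CoA, 5 rose and 6 fell in NCIH838 (median -0.18). SPHK1, a sphingosine kinase, rose from 17.5 to 41.1 TPM (adjusted p = 1.52e-07), while SLC27A2 and ACSL3, which activate fatty acids, fell from 7.05 to 4.16 and from 129 to 97.5 TPM. In DLD1 1 rose and 2 fell of 21 tested. The riser there was SPHK1, from 0.711 to 1.86 TPM, which passed the filter of 1 TPM only through its knockout libraries. SGPL1, the lyase that makes hexadecenal, chosen after its values were seen, was 39.1 and 42.4 TPM in NCIH838 and 66.6 and 67.0 TPM in DLD1 and was not called in any line. Of 14 tested peroxisomal genes 2 rose and 6 fell in NCIH838 (median -0.19), with ACOX2, a branched-chain oxidase, rising from 4.40 to 10.9 TPM (adjusted p = 4.00e-07). In DLD1 0 rose and 2 fell.

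The aryl hydrocarbon receptor list, whose targets include ALDH3A1, had 2 higher and 5 lower of 8 in NCIH838 (median -0.25). AHR itself fell from 45.6 to 26.3 TPM (adjusted p = 0.000281) and CYP1B1 from 232 to 169 TPM (adjusted p = 0.0118). CYP1A1, at 1.48 and 1.53 TPM, was not called (limma, adjusted p = 0.922). The list also holds AHR, ARNT and NFE2L2, so not all of its calls are of targets. In DLD1 only NQO1 of 7 was called, rising from 369 to 468 TPM (adjusted p = 0.00566). In NCIH838 NQO1 went the other way, from 1090 to 943 TPM (limma, adjusted p = 0.0293). NFE2L2, 1 of the 2 called higher in NCIH838, rose from 115 to 144 TPM (adjusted p = 0.000428). The other was TIPARP, which rose from 26.3 to 32.9 TPM (limma, adjusted p = 0.0226). The PPAR-alpha list had 3 higher and 4 lower of 8 in NCIH838 (median -0.15), where ANGPTL4 rose from 42.5 to 86.3 TPM and CPT1A fell from 116 to 61.5 TPM (adjusted p = 7.40e-08). In DLD1 2 of 8 fell. Of the other CYP4 genes, 6 of 8 were in the table, and only 1 could be tested in DLD1 and 0 in NCIH838, with 0 called.

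**Figure D3:**
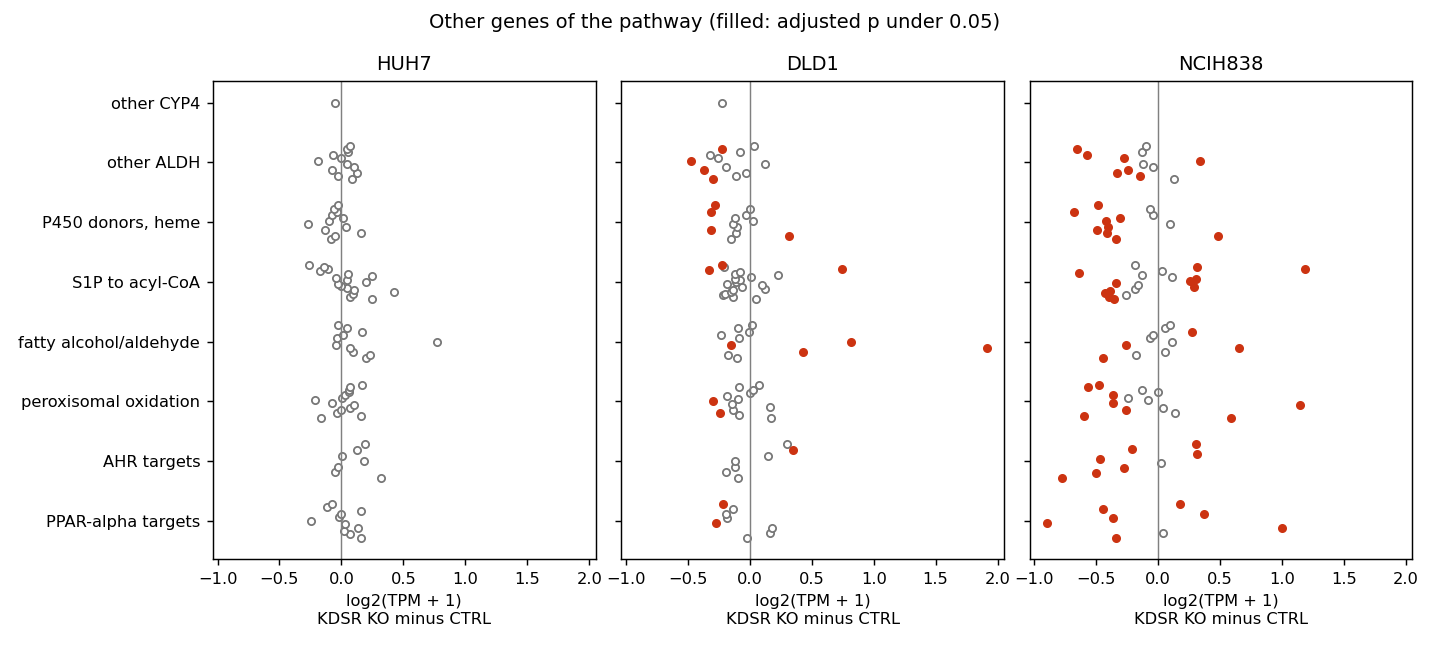
Log2 differences, KDSR KO minus CTRL, of the tested genes of each pathway list in each line, with called genes (adjusted p under 0.05) filled. In the NCIH838 panel the P450 electron and heme list lies mostly below 0, with ALAS1 above it.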

How the data were processed

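RNA was sequenced from 18 libraries, 3 per group. The authors deposited TPM for 27166 genes with gene identifiers and lengths, and per the submitters' processing notes featureCounts 2.0.0 and hg38 were used. The aligner, the strand setting and the handling of reads that match several genes are not given in the sources used here. TPM times gene length gave whole reads for 100% of values within 0.01, so reads could be recovered, 17039634 to 20385767 per library. The table left out genes with under 10 reads in total, as its smallest total shows. Columns were joined to samples through the sample numbers in the labels.

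The model was limma (3.58.1, under R 4.3.3) on log2(TPM + 1), using lmFit with 1 mean per group and eBayes with its trend and robust options, which left 12 residual degrees of freedom. The pseudocount of 1 pulls changes of low genes toward 0. Genes averaging 1 TPM or more over all libraries of a line entered the adjustment by Benjamini-Hochberg, and a call is an adjusted p under 0.05. For control differences between lines either line could pass, and for the comparison of knockout differences both had to. Members, lists, tests and alternatives were chosen with earlier results of these data known. The DLD1 contrast was used to choose the members, so it has no test for them. Control differences of members whose controls averaged under 1 TPM in one of the lines carry none either. Genes named in the text follow a rule: the 7 members; up to 4 called genes of each list averaging 5 TPM or more; the 3 most correlated genes of each member averaging 5 TPM or more; and the nearest neighbour genes. Not every gene that met it is named. Samples of a number across groups did not pair by the criterion used (correlations from -0.0673 to 0.252), so no block was used. Alternatives were a pseudocount of 0.1, no filter, a filter at 5 TPM, median ratio scaling, quantile normalization, voom on recovered reads, a replicate block, each line fitted alone and leaving out each library. The fit was also run on simulated data, with the same spread for all genes and libraries and no outlying library. Nothing about the libraries described here is read from that run.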

Additional observations from a re-analysis of the deposited data

Results flagged for a closer look

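For 4 members the knockout differences of NCIH838 and HUH7 were unequal, as tested on their difference (limma, Benjamini-Hochberg adjusted p). The values, NCIH838 minus HUH7, were -0.52 for CYP4F3 (adjusted p = 0.0124), -2.09 for CYP4F12 (adjusted p = 6.13e-06), -0.65 for ALDH3A2 (adjusted p = 0.000301) and -1.03 for ALDH3B1 (adjusted p = 2.36e-05). In each case NCIH838 was lower. Among 13739 genes tested the share called was 33%.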

How the results depend on the processing

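No called member result changed direction under the alternatives run. The NCIH838 fall of CYP4F3 lost its call with a pseudocount of 0.1 (-0.32, adjusted p = 0.0727) and quantile normalization (-0.24, adjusted p = 0.0542), and ranged from -0.36 to -0.26 when a library was left out (adjusted p from 0.0244 to 0.0900). With the replicate number as a block it was -0.31 (adjusted p = 0.0794), and the CYP4F3 difference between NCIH838 and HUH7 was -0.52 (adjusted p = 0.0512). The numbers did not pair the samples by the criterion used, though in NCIH838 each sample correlated best with its own number. The control difference of ALDH3B1 between DLD1 and HUH7 became called with median ratio scaling (-0.28), quantile normalization (-0.21) and voom (-0.31). The other tested member results kept their call. Called genes in HUH7, 0 as reported, were 9 with no filter, 2 with median ratio scaling, 2 with quantile normalization, 1 with the block and 0 to 7 when a library was left out (7 without CTRL replicate 3, 6 without CTRL replicate 2). Pathway list genes called higher in HUH7 were 1 with no filter and 0 to 1 when a library was left out. In DLD1 the pathway lists had 10 higher and 9 lower under median ratio scaling, the same under quantile normalization, and 8 to 12 lower when a library was left out (8 without CTRL replicate 3, 9 without KDSR KO replicate 1). Called genes in DLD1, 2674 as reported, were 1605 to 2406 when a library was left out, with 1605 without CTRL replicate 3 and 1753 without KDSR KO replicate 3. In DLD1 the described differences of CYP4F3 and CYP4F11 were 2.57 and 2.67 with voom. A filter at 5 TPM gave no value for CYP4F12 in HUH7. The causes of these changes were not tested. Counting error limits CYP4F2 everywhere, CYP4F11 in HUH7 and ALDH3A1 in NCIH838.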
